A study of Arabidopsis thaliana with 8 samples.

Results

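Transcript levels of 10 extensin genes were followed in roots of Arabidopsis thaliana seedlings after 4 h on mebendazole. The 10 genes were taken by locus identifier from the deposited gene count table, which lists 33602 genes in all. They form an abundant set of 4 genes (EXT3, AT2G43150, EXT4 and HRGP1) and a root hair set of 6 genes (AT5G06630, EXT10, EXT13, AT4G08400, AT4G08410 and EXT12). EXT4 (AT1G76930) is also known as EXT1, and HRGP1 (AT3G54590) is also known as EXT2. All 8 libraries came from roots of the Col-0 accession, with no mutant or transgene named in the labels, and from seedlings 14 d old that had first grown on plates with the solvent dimethyl sulfoxide (DMSO). Of these libraries, 4 came from seedlings moved to plates with 10 µM mebendazole (MBZ), a drug against parasitic worms that acts on their tubulin, and 4 from seedlings moved to plates with DMSO alone. Both groups carry replicate numbers 1 to 4, and the labels do not say whether a replicate is a separate culture. The spread between libraries may thus be technical, and p-values speak only for these libraries.

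Extensins are hydroxyproline-rich glycoproteins of the plant cell wall. Their sequence repeats a serine followed by a row of prolines, which are hydroxylated and then decorated with short arabinose chains, and tyrosines near these repeats are joined by peroxidases into a covalent network. In Arabidopsis roots, a subset of extensins is made in root hairs, the tubular outgrowths of epidermal cells, and loss of single root hair extensins shortens the hairs.

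The repeat that defines the family was found in every coding sequence of the 10 genes. Runs of a serine codon and 4 proline codons numbered between 9 in EXT4, of 293 codons, and 51 in HRGP1, of 743 codons. AT2G43150 was the shortest, with 212 codons and 22 runs that took up 51.9% of them. EXT3 held 28 runs in 431 codons, and AT4G08410 held 41 runs in 707 codons. Coding repeats from 5 of the genes are printed here, since such stretches decide how far reads of these transcripts can be told apart. Each is 30 bases from the coding strand of RefSeq TAIR10.1, 5′ to 3′, with a serine codon and its 4 proline codons in capitals.
EXT4: ccggtttacaagTCTCCCCCACCACCGgtt
HRGP1: gttgactacaagTCTCCTCCACCACCAtac
AT5G06630: acaagTCCCCACCACCACCGtacgtctaca
EXT10: aagTCTCCCCCACCACCAtacgtctacagc
AT4G08400: acaagTCCCCACCACCCCCAtacgtctaca
The EXT4 stretch occurred 6 times in its own coding sequence, that of HRGP1 6 times, that of AT5G06630 6 times, that of EXT10 5 times and that of AT4G08400 4 times. The AT5G06630 stretch was also present in EXT10, and the AT4G08400 stretch was also present in AT4G08410. The other 3 stretches were in none of the other 9 genes. In the map of the runs, EXT4 stood apart in having none in the second part of its coding sequence.

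**Figure D1:**
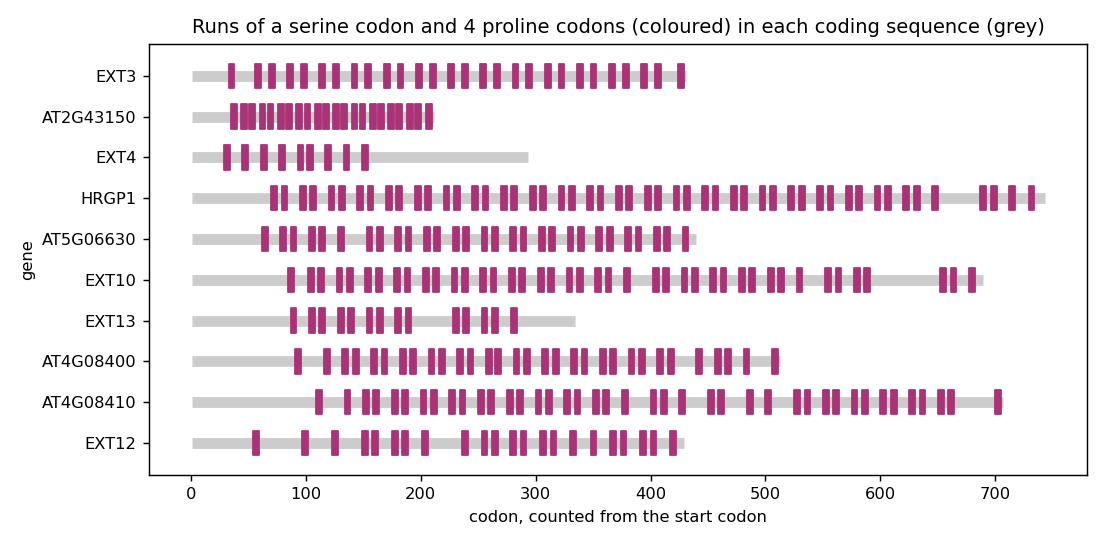
Positions of runs of a serine codon and 4 proline codons (coloured) along the coding sequence (grey) of the 10 extensin genes, in codons from the start codon. The runs are spread along most of each sequence, except in EXT4, and number from 9 in EXT4 to 51 in HRGP1.

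Repeats of this kind limit how well reads can be assigned to 1 gene. Of all 50-base windows in the annotated exons, 100% occurred once in the genome for AT2G43150 and EXT12, 97.9% for EXT10, 94.8% for EXT13, 94.1% for EXT3, 87.5% for EXT4 and 83.0% for HRGP1. The share was 67.9% for AT5G06630, where another 28.2% of windows recurred within the gene itself. AT5G06630 and EXT10 had no 50-base window in common, although they share the 30-base stretch printed above. AT4G08400 and AT4G08410 were the least distinct, with 43.8% and 47.4% of windows unique. They shared 959 windows, which is 55.8% of those of AT4G08400 and 42.7% of those of AT4G08410. With 150-base windows, 61.7% and 70.2% were unique for this pair, 94.0% for AT5G06630 and 100% for each of the other 7 genes. The read length and the handling of reads with several matches are not given in the sources used here, so the levels of AT4G08400 and AT4G08410 as single genes are uncertain.

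The 8 libraries held between 38042437 (DMSO replicate 4) and 54818801 (MBZ replicate 1) counts. After a filter on low counts, 20867 genes were tested. Of these, 66.5% passed an adjusted p of 0.05 in edgeR's quasi-likelihood test, 32.9% as higher and 33.6% as lower in MBZ, and the median log2 fold change over all of them was 0.00027. The common biological coefficient of variation was 1.91%. A call was thus the more common outcome in this comparison. In 59.0% of the tested genes, the MBZ and DMSO values did not overlap, and in 29.4% of them all MBZ values were the higher ones.

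All 10 extensin genes passed the count filter, and all 10 differed between the groups at an adjusted p under 0.05. MBZ libraries had more transcript of 9 genes and less of 1, HRGP1. The values of the groups did not overlap for any of the 10. The median log2 fold change was 0.42 over the 10 genes, 0.92 over the root hair set and 0.26 over the abundant set. AT5G06630 and AT4G08410 were at least 2-fold higher in MBZ, a size reached by 3.89% of the tested genes in that direction, and 0 of the 10 were at least 2-fold lower, as 3.90% of the tested genes were. Both lay at the limit of 2-fold: 0 of the 10 passed it without DMSO replicate 3, without MBZ replicate 3 or with upper-quartile scaling, and 1 passed it without DMSO replicate 1. In whole roots, a change in the number of cells of a type and a change in the RNA made per cell cannot be told apart.

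**Figure D2:**
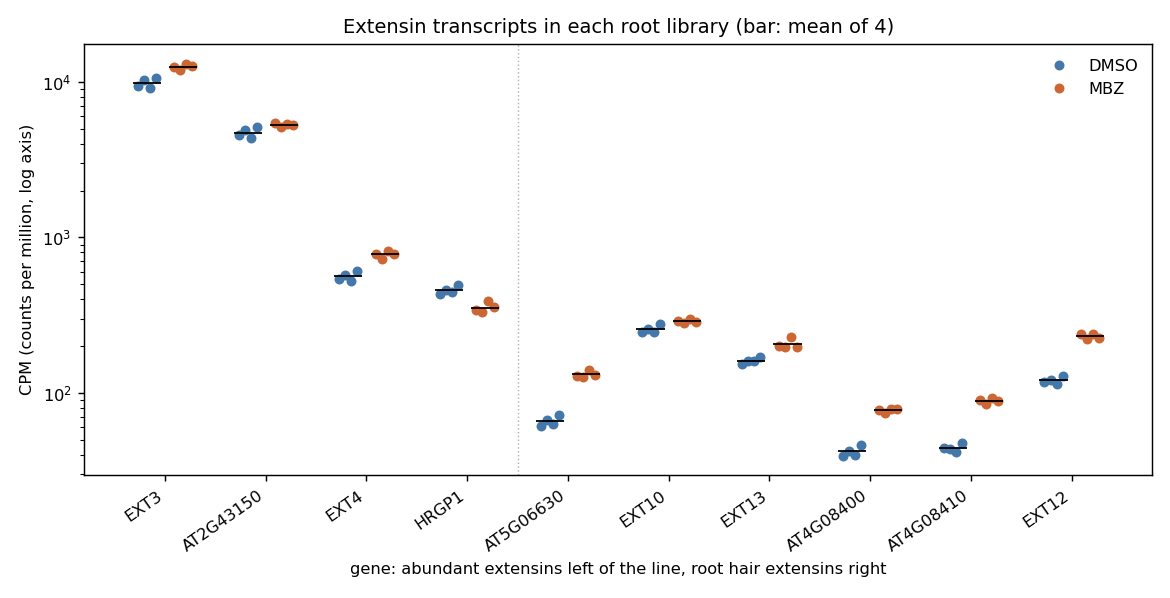
CPM (counts scaled to the library total, log axis) of the 10 extensin genes in each library, with DMSO in blue, MBZ in orange and a bar at the mean of 4 libraries. The orange points lie above the blue ones for each gene except HRGP1, where they lie below.

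EXT3 (AT1G21310, chromosome 1, 7453245 to 7455009, minus strand, TAIR10.1), an extensin needed for building new walls between dividing cells of the embryo, was the most abundant of the 10. Its level in DMSO replicates 1 to 4 was 9378, 10226, 9130 and 10593 CPM (counts per library total, with TMM scaling), and in MBZ replicates 1 to 4 it was 12550, 11863, 13105 and 12661 CPM. The lowest MBZ library was above the highest DMSO library. The level rose by 0.35 on the log2 scale, with an SE of 0.059 from the spread of log2 CPM between libraries (n = 4 per group, adjusted p = 5.36e-32 in edgeR). Per length, EXT3 ranked second in DMSO with 5979 ± 411 RPKM (SD, n = 4) and first in MBZ with 7545 ± 309 RPKM among 17872 genes with a deposited RPKM (read counts scaled to gene length and library total). EXT3 supplied 60.4% ± 0.152 of the counts of the 10 genes in DMSO and 62.7% ± 0.388 in MBZ (SD, n = 4 each).

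AT2G43150, a short gene annotated in the extensin family, changed less than EXT3. Its DMSO values were 4532, 4910, 4361 and 5090 CPM and its MBZ values were 5404, 5141, 5389 and 5311 CPM. The gap between the highest DMSO library and the lowest MBZ library was small, and the log2 fold change was 0.17 (SE 0.054, n = 4 per group, edgeR adjusted p = 1.14e-14). AT2G43150 and EXT10 had the smallest changes of the 10. The rank of AT2G43150 by mean deposited RPKM was 4 in DMSO and 2 in MBZ. By that measure, EXT3 and AT2G43150 held the top 2 places in treated roots. These ranks also reflect a fall of the root gene PYK10, from 7837 ± 39.5 RPKM in DMSO to 4746 ± 4.15 RPKM in MBZ (SD, n = 4). PYK10 was above both extensins in DMSO and below both in MBZ. The rank of AT2G43150 depends on the gene length used. The deposited RPKM imply 1041 bases for it, against 1411 exon bases in RefSeq, and a longer length would lower its RPKM.

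EXT4, known from leaves as a wound-inducible extensin, stood at 543.4, 570.9, 525.2 and 606.7 CPM in DMSO and at 786.6, 730.2, 821.3 and 782.3 CPM in MBZ. All MBZ libraries were above all DMSO libraries, and the log2 fold change of 0.48 was the largest of the abundant set (SE 0.057, n = 4 per group, edgeR adjusted p = 6.93e-38). HRGP1, another extensin with the serine and proline repeats, was the exception in direction. It stood at 433.9, 460.4, 446.7 and 496.1 CPM in DMSO and at 342.2, 329.7, 388.3 and 354.8 CPM in MBZ. Every MBZ library was below every DMSO library, and HRGP1 fell by 0.38 on the log2 scale (SE 0.065, n = 4 per group, edgeR adjusted p = 2.23e-27).

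In the root hair set, 4 genes doubled or came close to it and 2 changed less. AT5G06630 rose from 61.1, 67.1, 63.0 and 72.5 CPM in DMSO to 128.4, 127.1, 140.8 and 131.3 CPM in MBZ. EXT12, a root hair extensin, rose from 117.0, 120.9, 114.6 and 128.3 CPM to 237.5, 223.1, 240.9 and 224.9 CPM. In both genes the lowest MBZ library was far above the highest DMSO library. The log2 fold change was 1.01 for AT5G06630 (SE 0.064, n = 4 per group, edgeR adjusted p = 2.82e-53). It was 0.95 for EXT12 (SE 0.045, n = 4 per group, edgeR adjusted p = 3.98e-59), whose windows were all unique in the genome at 50 bases.

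AT4G08400 and AT4G08410, the pair that shares most sequence, both rose. AT4G08400 had 39.4, 42.2, 39.99 and 46.5 CPM in DMSO and 77.7, 74.0, 78.3 and 78.9 CPM in MBZ. AT4G08410 had 44.4, 43.4, 41.5 and 47.4 CPM in DMSO and 89.8, 84.3, 93.3 and 89.2 CPM in MBZ. The log2 fold change was 0.88 for AT4G08400 (SE 0.058, n = 4 per group, edgeR adjusted p = 6.60e-46) and 1.02 for AT4G08410 (SE 0.050, n = 4 per group, edgeR adjusted p = 1.98e-52). When the counts of both genes were added, so that it no longer matters to which gene a shared read was counted, the log2 fold change was 0.95. The sum does not bring back shared reads that were left uncounted, if any were.

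EXT10 and EXT13 are root hair extensins too, and their changes were smaller. EXT10 ran from 246.0 to 277.9 CPM in DMSO and from 283.3 to 300.1 CPM in MBZ. EXT13 ran from 153.4 to 170.2 CPM in DMSO and from 197.8 to 228.0 CPM in MBZ. The groups did not overlap for either gene, and the log2 fold change was 0.17 for EXT10 (SE 0.044, n = 4 per group, edgeR adjusted p = 7.80e-13) and 0.36 for EXT13 (SE 0.058, n = 4 per group, edgeR adjusted p = 1.81e-25). EXT13 in MBZ had 1 library, replicate 3 at 228.0 CPM, well apart from the other 3, and without it the log2 fold change of EXT13 was 0.31.

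Levels per length changed their order with treatment. In DMSO the mean RPKM ran from EXT3 through AT2G43150 (4562 ± 316), EXT4 (513 ± 31.5), HRGP1 (215 ± 12.3), EXT13 (165 ± 6.998), EXT10 (126 ± 6.97), EXT12 (80.6 ± 3.89), AT5G06630 (44.9 ± 3.38) and AT4G08400 (27.6 ± 2.08) to AT4G08410 (21.0 ± 1.14; SD, n = 4 throughout). No 2 neighbours in that order had overlapping libraries. In MBZ, EXT13 (209 ± 14.8 RPKM) lay above HRGP1 (164 ± 11.7 RPKM), and EXT12 (154 ± 5.93 RPKM) lay above EXT10 (140 ± 3.66 RPKM). HRGP1 and EXT12 overlapped in MBZ, and no other neighbours did. The gene length implied by the deposited values was below the RefSeq exon length for several genes. It was 1041 against 1411 bases for AT2G43150 and 2150 against 2656 bases for HRGP1. For EXT4 it was 1099 against 1343 bases, and for EXT13 981 against 1274 bases. For EXT3 it was 1653 against 1654 bases. Levels per length, and their order, thus depend on the authors' gene models.

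Pairs of genes within the family were compared by the log2 ratio of their counts within each library, which is unaffected by the scaling of libraries. The 4 ratios all differed between the groups without overlap, at an exact two-sided permutation p of 0.0286 each (0.0286 after adjustment over the 4), the smallest that 4 against 4 libraries allow. AT5G06630 and EXT10 are neighbours on chromosome 5, on the same strand and 1742 bases apart. Their ratio went from -1.97 ± 0.036 in DMSO to -1.14 ± 0.038 in MBZ (SD, n = 4), so AT5G06630 had 0.256 reads per EXT10 read in DMSO and 0.455 in MBZ. HRGP1 over EXT3 went from -4.42 ± 0.050 to -5.15 ± 0.051, a difference of -0.73. HRGP1 was lower and EXT3 higher in every MBZ library than in every DMSO library, so the groups could not overlap in this ratio. Its p was thus fixed beforehand and adds nothing to the changes of the single genes. EXT4 over EXT3 went from -4.13 ± 0.023 to -4.01 ± 0.014, a difference of 0.12. AT4G08400 over AT4G08410 went from -0.07 ± 0.066 to -0.21 ± 0.033, a difference of -0.13. That last ratio rests on reads that the pair may share, and without any 1 of the MBZ libraries its exact permutation p was 0.0571.

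**Figure D3:**
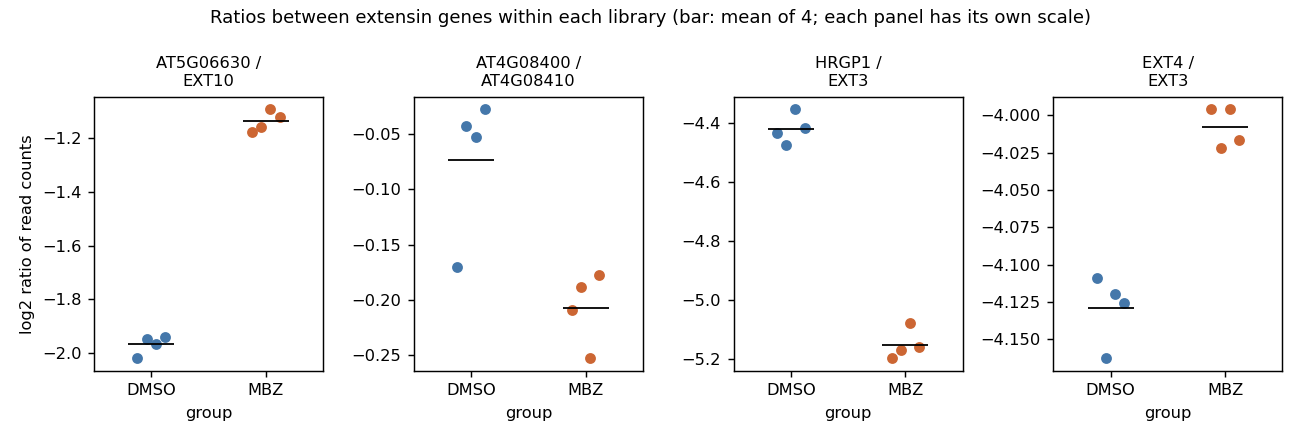
Log2 ratio of read counts of a pair of extensin genes in each library, with DMSO in blue, MBZ in orange, a bar at the mean of 4 libraries and a separate scale per panel. The groups do not overlap in any panel, and the widest shift is that of AT5G06630 over EXT10, from -1.97 to -1.14.

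The 10 genes varied more between libraries of 1 group than the median gene with a mean of at least 40 CPM. Their coefficients of variation were 4.30% to 7.68% in DMSO and 2.27% to 7.13% in MBZ. The median over 6000 such genes was 2.04% and 1.96%. They varied together: DMSO replicate 4, which also had the fewest counts, was the highest DMSO library for 10 of the 10 genes. MBZ replicate 3 was the highest MBZ library for 8 of them, and MBZ replicate 2 was the lowest for 9. The SE that edgeR itself implied for these genes, 0.018 to 0.029, lay below the SE from the spread between libraries, 0.044 to 0.065, which is the one given here. The edgeR adjusted p-values go with the smaller SE, so they are stronger than the spread of these genes between libraries would give. DESeq2, another count model, also called all 10, with a largest adjusted p of 0.00297 for AT2G43150. Leaving out any 1 library left all 10 called in edgeR.

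The start regions of the 6 root hair genes shared a stretch of sequence that the abundant genes lacked. Regions from 250 bases before to 50 bases after the annotated gene start were compared over 27443 protein-coding genes of TAIR10.1. The word GCACGT followed within 40 bases by the word ACACGAA, read on either strand, was found in 11 of these regions (0.0401%), 6 of them those of the root hair set and 0 those of the abundant set. The words were chosen because all 6 regions held them, so their presence there is a description. They were picked from several words common to the 6 regions. The longest of these, TTTCAAACAA with 10 bases, was in 0.485% of all regions and in 0 of the abundant genes. On its own, GCACGT was in 4.18% of all regions and in 1 of the abundant genes, and ACACGAA was in 3.63% and in 0 of the abundant genes. The stretches are printed from the strand of each gene, 5′ to 3′, with both words in capitals, because within the root hair set they are common to AT4G08410, which rose most, and EXT10, which rose least.
AT5G06630: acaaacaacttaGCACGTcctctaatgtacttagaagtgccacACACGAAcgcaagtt
EXT10: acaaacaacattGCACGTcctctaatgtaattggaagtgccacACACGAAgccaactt
EXT13: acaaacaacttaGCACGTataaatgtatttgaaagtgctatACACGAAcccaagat
AT4G08400: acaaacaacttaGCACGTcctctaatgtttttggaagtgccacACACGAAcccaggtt
AT4G08410: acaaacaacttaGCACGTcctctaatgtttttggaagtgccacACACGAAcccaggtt
EXT12: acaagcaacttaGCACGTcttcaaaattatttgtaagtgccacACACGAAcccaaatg
The stretch lies at chr5:2037905-2037962 on the minus strand for AT5G06630, where GCACGT starts 95 bases before the gene start. It lies at chr5:2041983-2042040 on the minus strand for EXT10 and at chr5:13433996-13434051 on the plus strand for EXT13. It lies at chr4:5325440-5325497 and chr4:5341254-5341311 on the minus strand for AT4G08400 and AT4G08410, and at chr4:7783674-7783731 on the plus strand for EXT12. The words were 25 bases apart in 5 of the genes and 23 bases apart in EXT13.

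The genes with both words in this order were not alike in their change, and 1 of them fell. Only the words were searched for over all regions, so these genes need not share the rest of the printed stretch. Among the other 5 of the 11, EXT6 (AT2G24980), a further root hair extensin, rose by 0.58 (edgeR adjusted p = 5.03e-40), and AT5G13500 (HPAT3), which adds the first arabinose to hydroxyproline, rose by 0.13 (1.31e-05). AT3G07030 fell by 0.11 (0.00985), SPDS1, a spermidine synthase, had a log2 fold change of -0.03 (0.142), and AT5G40040 did not pass the count filter. These genes were named after their values were seen. The published consensus of the root hair element (RHE) was in 0.867% of the 27443 regions and in 0 of the 10. That search allowed no mismatch, so near matches, such as those within the printed stretches of EXT12 and EXT13, were not counted. CACGTG was in 7.68% and in 0 of the 10, GCCGCC was in 2.57% and in 0 of the 10, ATGTA was in 56.4% and in 8 of the 10, and TATAAA was in 52.1% and in 10 of the 10, all on either strand.

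A further list of 12 extensin genes was examined, of which 10 were tested. Here 5 were higher, 3 were lower and 2 were not called, with a median log2 fold change of 0.31. AT1G26250, annotated in the extensin family, rose the most of all extensins tested, from 125.0 to 147.7 CPM in DMSO to 535.4 to 596.1 CPM in MBZ (log2 fold change 2.02, edgeR adjusted p = 2.64e-83). EXT11 (AT5G49080), which RefSeq annotates as a pseudogene, rose by 1.33. AT3G28550 fell by 0.87, from 1211 ± 74.2 to 661 ± 47.9 CPM (SD, n = 4), and AT3G54580 fell by 0.49, from 976 ± 51.4 to 694 ± 35.6 CPM. AT3G54580 and HRGP1 lie next to each other on chromosome 3, on opposite strands with their starts 2208 bases apart, and both fell. Because of the most abundant genes among them, the summed level of the 12 went from 3172 to 3542 CPM in DMSO to 2569 to 2949 CPM in MBZ, while more of them rose than fell.

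Ordered by coding length, the extensins that fell were the longest. Of the 22 extensins listed, 19 had a RefSeq coding sequence and were tested. The 4 longest were AT3G28550 (1024 codons), AT3G54580 (957 codons), AT1G23720 (919 codons) and HRGP1 (743 codons), and these were the 4 that fell. AT1G23720, named here after its values were seen, fell by 0.47. Of the 15 shorter ones, 13 rose, 0 fell and 2 were not called. The shortest, AT3G20850 with 134 codons, was 1 of those not called, at -0.32 (edgeR adjusted p = 0.106), but was called lower without DMSO replicate 1 (-0.48, adjusted p = 0.015) and without DMSO replicate 4 (-0.40, adjusted p = 0.0491). The longest of those that rose, AT4G08410, has 707 codons, and EXT10 with 689 codons is close behind it. The order was noticed in these data and is given without a test.

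**Figure D4:**
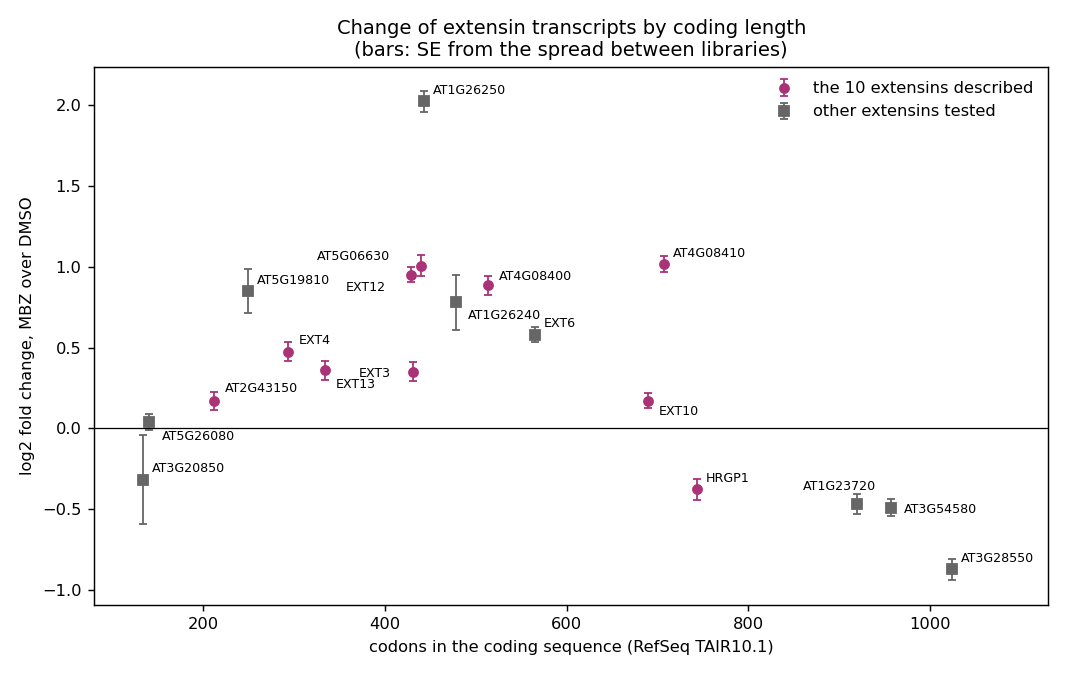
Log2 fold change (MBZ over DMSO) of 19 extensin genes against the number of codons in the RefSeq coding sequence, with the 10 described genes as circles, the other extensins as squares and bars for the SE from the spread between libraries. The 4 genes with the most codons, from 743 to 1024, lie below 0, as does AT3G20850 with 134 codons, which was not called.

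Genes that act on extensins were mixed in direction. Of 11 tested genes for proline hydroxylation and for glycosylation of extensins, 7 were higher, 1 was lower and 3 were not called, with a median log2 fold change of 0.13. The largest rises were those of AT3G01720 (SERGT1), which adds galactose to serine, at 0.46 (edgeR adjusted p = 2.12e-40) and of AT2G25260 (HPAT2), which adds arabinose to hydroxyproline, at 0.44 (1.62e-26). AT3G57630 (ExAD), which adds an outer arabinose, fell by 0.19 (1.52e-09). With an assumed biological coefficient of variation of 0.1, 3 genes of this list were called. Counts of called genes in this and the following lists stand beside a share of 66.5% called over all tested genes.

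Of 7 tested class III peroxidases, enzymes known or proposed to cross-link wall proteins in roots, 5 were higher and 2 were lower, with a median of 0.77. AT3G49960 (PRX35) rose by 1.31, from 58.1 ± 2.87 to 145 ± 4.07 CPM (SD, n = 4), and AT4G30170 (PRX45) rose by 0.81, from 536 ± 4.34 to 937 ± 9.11 CPM. AT2G18980 (PRX16) fell by 1.44 and AT5G17820 (PRX57) fell by 0.30. AT1G05240 (PRX01) and AT1G05250 (PRX02) were listed at 0 in all 8 libraries. Of the 50-base windows of AT1G05240, 41.1% (937 of 2282) were unique in the genome, and of those of AT1G05250, 0%. The reason for the counts of 0 was not tested.

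Of 10 tested leucine-rich repeat extensins, chimeric proteins with an extensin tail, 4 were higher, 4 were lower and 2 were not called, with a median of 0.11. AT3G22800 (LRX6) rose by 1.09 (edgeR adjusted p = 1.19e-57) and AT3G24480 (LRX4) rose by 0.90 (1.26e-55). LRX3 fell by 0.59 (8.03e-35), and AT1G49490 (PEX2), of a group known from pollen, fell by 0.45 (1.54e-05). With an assumed biological coefficient of variation of 0.1, 6 of this list were called, 4 higher and 2 lower.

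**Figure D5:**
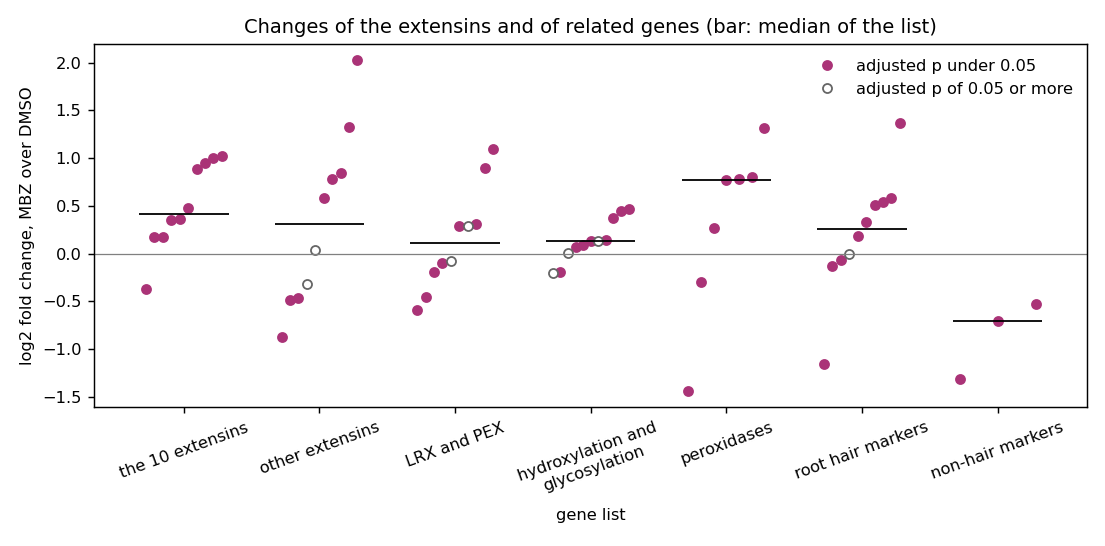
Log2 fold change (MBZ over DMSO) of each tested gene in 7 lists, with filled points at an adjusted p under 0.05, open points otherwise and a bar at the median of the list. The medians run from -0.70 for the 3 non-hair markers to 0.77 for the 7 peroxidases, and the lists other than the non-hair markers hold genes on both sides of 0.

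Markers of the epidermal cell types were examined beside the root hair extensins. Of 10 root hair markers, 6 were higher, 3 were lower and 1 was not called, with a median of 0.26, and their summed level went from 584 to 606 CPM in DMSO to 654 to 668 CPM in MBZ. RSL4, a transcription factor that drives hair growth, rose by 1.37, and EXPA18, a root hair expansin, rose by 0.58. RSL2, a relative of RSL4, fell by 1.16, and SHV2 (COBL9), a root hair wall protein, fell by 0.13. The 3 markers of non-hair epidermis, GL2, MYB66 (WER) and MYB23, all fell, by 0.70, 0.53 and 1.32, and their summed level went from 31.7 to 33.2 CPM in DMSO to 19.1 to 21.1 CPM in MBZ. Root markers were present in all libraries: PYK10 fell by 0.71 and SHR by 0.11, while SCR rose by 0.23 and WOX5 by 0.48. Of 5 photosynthesis markers of shoots, 4 were lower and 1 was not called, and their summed level was 160 to 169 CPM in DMSO and 107 to 111 CPM in MBZ. The part of these shifts in the extensin values was not tested.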

How the data were processed

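RNA-seq libraries of roots were analysed, 4 for DMSO and 4 for MBZ, grouped by their titles. The column names of the MBZ libraries do not name the drug. The authors deposited raw read counts per gene for 33602 genes and RPKM values for 17872 of them. Per the submitters' processing notes, STAR 2.7.0a, edgeR 3.36.0 and the build TAIR10 were used, with no role stated. The counting program, annotation version, strand setting and read length are not given in the sources used here. In the RPKM that the authors deposited, the gene length implied by count and RPKM differs from RefSeq for several extensins. The deposited files hold no coordinates. Positions, sequences and symbols were read by locus identifier from RefSeq TAIR10.1 (32835 of 33602 identifiers matched). Names such as PRX35 or HPAT2 that stand beside a locus identifier come from general knowledge.

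Deposited counts were tested in R 4.3.3 by the quasi-likelihood method of edgeR 4.0.16. The fit used TMM factors, the filterByExpr filter and the group as its only factor. Benjamini-Hochberg adjustment ran over 20867 genes, with a threshold of 0.05. The fit was tried on simulated counts drawn independently for each gene. Such counts do not cover genes that vary together between libraries, as the extensins did. CPM were computed from the counts with TMM factors. A count of 3, used as a floor, equals 0.055 to 0.079 CPM, and read counts carry counting error beside the spread between libraries. Ratios used an exact permutation test over libraries. Alternatives were DESeq2 1.42.0, limma 3.58.1 on log2(RPKM + 1) and log2(RPKM + 0.1), other scalings and filters, summed paralog counts, a replicate block, leaving out each library, and larger assumed variation.

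The 10 genes and the gene lists were chosen with earlier results of these data known. The genes named from a list were the 2 with the largest rise and the 2 with the largest fall past the threshold, and all markers of hair-free epidermis and of root. Equal replicate numbers were not treated as pairs, since the labels do not pair them. No within-group pair of libraries agreed within sampling noise (chi-square per degree of freedom 1.59 to 2.37), so none was taken as a repeat deposit. 0 columns were left out.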

Additional observations from a re-analysis of the deposited data

Results flagged for a closer look

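EXT13 in the MBZ group had 1 library far from the others. Replicate 3 had 228.0 CPM, against 197.8 to 200.9 CPM in the other 3, and its gap took up 0.895 of the range of the group, above Dixon's 95% critical value for 4 libraries. Of 30 groups of 4 tested in this way, 1 passed that value, and chance alone gives about 5%.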

How the results depend on the processing

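Each of the 10 extensins kept its sign in all 207 recalculations and passed the threshold in 199 of them. The 207 include sums with a neighbour or paralog, whose value is that of the pair and not of the single gene. The recalculations that did not pass came from an assumed biological coefficient of variation (BCV), an alternative chosen after seeing the data. With a BCV of 0.1, 7613 genes were called (3508 higher, 4105 lower), and AT2G43150 at 0.17 (adjusted p = 0.197) and EXT10 at 0.17 (0.198) were not. With a BCV of 0.2, 3604 genes were called (1664 higher, 1940 lower) and 4 of the 10 extensins (4 higher, 0 lower). Those not called were EXT3 at 0.35 (0.306), AT2G43150 at 0.17 (0.769), EXT4 at 0.47 (0.102), HRGP1 at -0.38 (0.253), EXT10 at 0.17 (0.769) and EXT13 at 0.36 (0.293). Leaving out 1 library at a time gave 13356 to 13596 called genes (6609 to 6752 higher, 6747 to 6844 lower), with 10 extensins called (9 higher, 1 lower) each time. The AT4G08400 over AT4G08410 ratio then ran from -0.17 to -0.12. DESeq2 called 13027 genes. The fit with the replicate block called 13786 genes and the same 10 extensins. Same-numbered libraries did not deviate together (correlations -0.043, -0.026, 0.0058 and -0.013). In the RPKM fits, 7 of the 12 further extensins had values and 3 were higher. Summed with its neighbour or paralog, AT5G06630 and EXT10 together rose by 0.38, and HRGP1 and AT3G54580 together fell by 0.45. The handling of repeated reads is unknown and its effect on AT4G08400, AT4G08410 and AT5G06630 was not measured. Each extensin had at least 1776 counts in every library. By upper-quartile scaling and in the RPKM fits, 0 of the 10 extensins were at least 2-fold higher, and with library size alone 1 was.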
